A study of Mus musculus with 31 samples.

Results

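Genes that make cholesterol and fatty acids, control that synthesis or respond to sterols were followed in mouse natural killer (NK) cells with and without TGFB1. The 38 genes were chosen by name, with earlier results of these data known. They were 18 enzymes of the sterol pathway and 6 genes for SREBP factors, their sterol sensors and a sterol carrier. The others were 9 enzymes of fatty acid synthesis and desaturation, and 5 LXR receptors and targets. All 38 were found among the 27179 genes of the count table, and 37 passed the filter on low counts. The exception was Nr1h3, which encodes LXR alpha, with 0 to 6 counts per library. RNA-seq counts came from 31 libraries of sorted NK cells, cytotoxic lymphocytes of the innate immune system. The genotypes were wild type (WT), TGFBRII KO, a knockout of the type II TGF-β receptor, and CIS KO, a knockout of a suppressor of cytokine signalling encoded by Cish. Cells were unstimulated (4 WT, 3 TGFBRII KO and 4 CIS KO libraries), treated for 4 h with TGFB1 (2, 3 and 4 libraries) or treated for 24 h with TGFB1 (4, 3 and 4 libraries). The 2 WT libraries at 4 h carry replicate numbers 1 and 4. The alleles, any Cre driver, the organ and the TGFB1 dose were not stated in the sources used here.

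Cells sense their own cholesterol in the endoplasmic reticulum. When sterols are scarce, the carrier protein SCAP escorts the SREBP transcription factors to the Golgi, where they are cut loose and go on to the promoters of sterol and fatty acid genes. When sterols are plentiful, the INSIG proteins hold SCAP back. The LXR receptors respond in the other direction: they are activated by oxidised sterols and raise genes that export cholesterol, such as Abcg1, or that remove lipoprotein receptors from the cell surface, such as Mylip. Proliferating lymphocytes are known to use the SREBP programme to build membrane.

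The promoters of these genes were searched for short motifs. Windows from 250 bases before to 50 bases after the annotated start (RefSeq, GRCm38.p6) were found for 30 of the 38 genes. Fdps, Fdft1, Sqle, Stard4, Scd1, Scd2, Fads1 and Abcg1 had none. The letters searched, on both strands, were CCAAT, the site of NF-Y, a factor known to work beside SREBP, the GC box GGGCGG, the E-box CACGTG, the sterol regulatory element core TCACNCCAC and, for LXR, AGGTCA repeated with any 4 bases between. No motif searched contains another. CCAAT was present in 14 of 15 sterol enzymes (93.3%), in 22 of all 30 genes (73.3%) and in 41.1% of 27025 genes with a window. GGGCGG was present in 14 of 15 sterol enzymes (93.3%) and in 38.2% of all genes, and CACGTG in 20% and 8.09%. The sterol regulatory element core matched exactly in 1 of the 30 genes, Hmgcs1 (3.33%), beside 1.44% of all genes, and no window of the 30 held the LXR repeat, beside 0.0148% of all genes. These shares are a description of letters in short windows. All genes here are those with a window, whether or not they were tested for expression. A gene with several starts was counted if any of its windows matched. The 4 windows below are those of the LXR target Mylip and of 3 sterol enzymes that fell in WT cells at both times. Capitals mark CCAAT on either strand (CCAAT or ATTGG) and, in Hmgcs1, the sterol regulatory element core that starts at base -137.
Hmgcs1 promoter, chr13:119690101-119690400, plus strand: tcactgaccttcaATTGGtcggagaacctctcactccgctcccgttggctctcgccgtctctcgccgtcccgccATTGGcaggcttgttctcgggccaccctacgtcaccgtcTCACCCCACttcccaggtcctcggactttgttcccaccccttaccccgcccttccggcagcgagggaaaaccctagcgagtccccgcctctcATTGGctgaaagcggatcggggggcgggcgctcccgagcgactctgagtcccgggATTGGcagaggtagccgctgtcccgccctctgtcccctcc
Cyp51 promoter, chr5:4104648-4104947, minus strand: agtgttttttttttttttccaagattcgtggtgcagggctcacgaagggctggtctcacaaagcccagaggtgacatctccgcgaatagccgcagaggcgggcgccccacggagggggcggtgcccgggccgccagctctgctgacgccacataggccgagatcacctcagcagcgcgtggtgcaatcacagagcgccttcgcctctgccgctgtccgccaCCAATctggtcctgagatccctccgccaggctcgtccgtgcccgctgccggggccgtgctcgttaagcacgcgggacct
Hsd17b7 promoter, chr1:169969156-169969455, minus strand: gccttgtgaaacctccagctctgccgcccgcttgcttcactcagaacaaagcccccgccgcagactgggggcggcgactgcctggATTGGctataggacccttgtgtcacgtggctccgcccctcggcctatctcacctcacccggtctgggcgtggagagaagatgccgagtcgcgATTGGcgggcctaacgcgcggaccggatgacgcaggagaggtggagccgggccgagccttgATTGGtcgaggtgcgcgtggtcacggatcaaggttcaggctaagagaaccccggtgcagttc
Mylip promoter, chr13:45389492-45389791, plus strand: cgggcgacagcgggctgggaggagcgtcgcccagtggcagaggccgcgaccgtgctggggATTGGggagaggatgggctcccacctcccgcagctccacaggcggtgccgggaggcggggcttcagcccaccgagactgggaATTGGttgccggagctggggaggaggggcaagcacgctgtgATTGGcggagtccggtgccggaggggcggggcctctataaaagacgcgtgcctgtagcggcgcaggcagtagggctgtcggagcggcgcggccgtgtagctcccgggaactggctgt
Hmgcs1 and Mylip hold several CCAAT boxes close to their starts, and Cyp51 holds 1. The genes themselves lie at chr13:119690351-119708260 (Hmgcs1), chr5:4080674-4104697 (Cyp51), chr1:169949535-169969242 (Hsd17b7) and chr13:45389742-45411940 (Mylip).

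Total counts per library ran from 297561 (WT 4 h replicate 1) to 1403005 (CIS KO 24 h replicate 2), with a median of 736193. Cish, the gene targeted in CIS KO, stood at 18 to 56.1 CPM (TMM-scaled counts, as a rate per library total) in CIS KO libraries, at 130 to 289 CPM in WT libraries and at 124 to 173 CPM in TGFBRII KO libraries. The whole-gene count of Tgfbr2 (199 to 276 CPM in TGFBRII KO and 189 to 361 in WT) does not check the deletion, because reads outside a deleted exon are still counted. In unstimulated WT libraries Smad7, a gene of the TGF-β pathway, stood at 39.4 to 52.5 CPM. With TGFB1 it stood there at 128 and 142 CPM at 4 h and 101 to 138 CPM at 24 h. In CIS KO the same 3 conditions gave 33.4 to 37.5, 105 to 133 and 66.2 to 125 CPM. In the 9 TGFBRII KO libraries, treated or not, Smad7 stood at 27.4 to 37.7 CPM. The labels call the replicates biological but do not say that they came from separate animals or cultures, so p-values measure the spread between these samples. The labels give no time for the unstimulated cells, and no library labelled as kept for 4 h or 24 h without TGFB1 was analysed here. In each response the effect of TGFB1 and that of time in culture therefore cannot be told apart. Sex-linked RNA differed by genotype: Xist was at 91.1 to 222 CPM in the WT libraries, at 12.6 to 131 CPM in those of TGFBRII KO and at 0 to 5.22 CPM in those of CIS KO, so genotype and sex composition cannot be told apart between genotypes. Summed RNA of the Y-linked genes Ddx3y, Eif2s3y, Uty and Kdm5d differed between WT libraries by replicate number: it was 14.8 to 22.5 CPM in the 3 libraries numbered 1, 91.1 and 124 CPM in those numbered 2, 7.54 and 5.96 CPM in those numbered 3, and 1.38 and 1.48 CPM in the unstimulated and 24 h libraries numbered 4. The library labelled WT 4 h replicate 4 had 20 CPM, in the range of those numbered 1 and unlike the others numbered 4. Whether both WT libraries at 4 h share a source was not tested, and every WT value at 4 h rests on this pair. Of 12 NK markers 11 were tested, with summed levels from 2840 to 6280 CPM in every library. The B cell sum was at most 4.99 CPM, the myeloid sum 17.9 to 49.4 CPM, the erythroid and platelet sum at most 7.8 CPM, and the sum of 5 markers of type 2 and 3 innate lymphoid cells, mostly Il1rl1, 8.23 to 93.9 CPM. The sum of 9 T cell markers was 345 to 615 CPM, with Cd3g at 106 to 182 CPM, Trbc1 at 88.3 to 173 CPM and Cd3d at 47 to 127 CPM. Bcl11b had the widest range of the list, 7.13 to 190 CPM. Trac stood at 6.96 to 50.9 CPM and Cd3e at 1.2 to 20.2 CPM, and Cd4, Cd8a and Cd8b1 at no more than 2 counts in any library. The sum of 6 stroma or epithelium markers was 264 to 487 CPM, made up of Pecam1 (182 to 347 CPM) and Epcam (50.5 to 140 CPM), with Krt8 at 0 and Col1a1, Col3a1 and Krt18 at no more than 5 counts. In bulk RNA of this kind, fewer cells of a type and less RNA per cell cannot be told apart.

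Per kilobase of exon, unstimulated WT cells had most RNA of Cyp51 (135 ± 4.73 CPM per kb, mean ± SD, n = 4), which removes the 14-methyl group of lanosterol, and of Hmgcs1 (133 ± 12.5), the enzyme that makes HMG-CoA. Msmo1, a sterol C4-methyl oxidase, followed at 122 ± 7.38. The first and second of these differed by less than their spread. Nr1h2, which encodes LXR beta, stood at 37.1 CPM per kb, Srebf1 at 21.1 and Srebf2 at 16.2. Fatty acid synthase (Fasn, 1.68), LXR alpha (Nr1h3, 0.957) and the cholesterol exporter Abca1 (0.441) lay at the bottom. Fasn had 0 to 32 counts and Abca1 1 to 13 counts per library, so little can be said of either.

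At 4 h of TGFB1, WT cells had less RNA of most sterol enzymes and more of the LXR targets Abcg1 and Mylip. Of the 37 tested genes 4 rose and 14 fell, where 6.9% of all 10275 genes rose and 5.03% fell. All 12 sterol enzymes that were called fell, none rose, and the median log2 fold change of the 18 was -0.67, beside -0.02 over all genes. Counted together, the 18 enzymes went from 2951 to 3099 CPM in the 4 unstimulated libraries to 1830 and 1973 CPM in the 2 libraries at 4 h. Without WT 4 h replicate 4, 9 of the 37 genes and 7 sterol enzymes were called, and without WT 4 h replicate 1, 11 of the 37. DESeq2 called 11. With library size alone as the scaling, 2 of the 37 rose and 14 fell, and over all genes 527 rose and 751 fell in place of 709 and 517. Summed markers of other cell types moved without overlap in the same comparison: T cell from 484 to 535 CPM down to 400 to 477 CPM, myeloid from 20 to 36 CPM up to 37.6 to 48.9 CPM, type 2 and 3 innate lymphoid from 8.74 to 40.7 CPM up to 56.4 to 93.9 CPM, and stroma or epithelium from 264 to 305 CPM up to 348 to 421 CPM. Their part in the result was not tested.

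**Figure D1:**
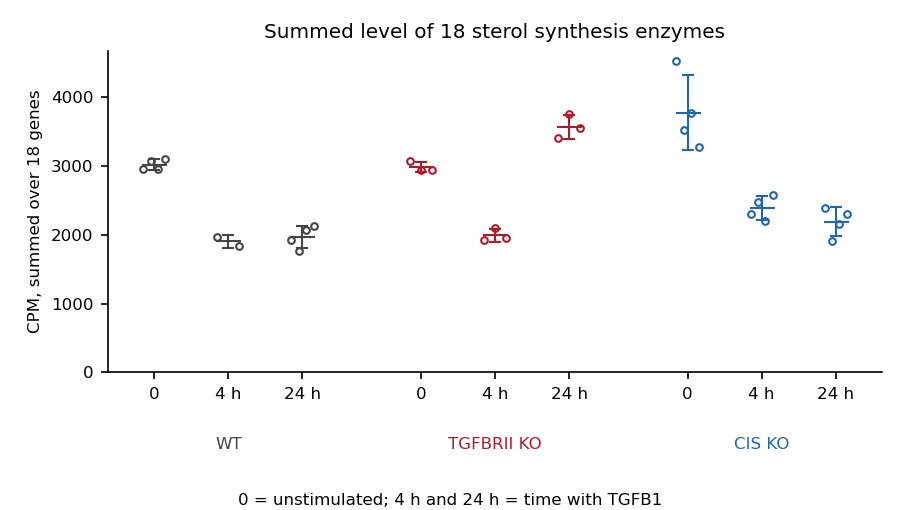
Summed level of the 18 sterol enzymes (TMM-scaled CPM) in each library, by genotype and condition. Points are libraries, horizontal bars group means and error bars SD; TGFBRII KO stood at 3408 to 3748 CPM at 24 h, above its unstimulated libraries, while WT and CIS KO stayed below theirs.

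Sqle, squalene epoxidase, an oxygen-dependent and often limiting step of the pathway (chr15:59315092-59331193), read 136, 161, 161 and 129 CPM in the unstimulated WT libraries and 48.9 and 57.6 CPM at 4 h. At 24 h it read 91.3, 86.3, 95.4 and 94.97 CPM. The ranges of the 3 conditions did not overlap, with the 24 h libraries between the other two. The log2 fold change ± SE was -1.42 ± 0.15 (adjusted p = 1.3e-08) at 4 h and -0.69 ± 0.09 (adjusted p = 5.62e-07) at 24 h, where adjusted p comes from edgeR's quasi-likelihood test, corrected by Benjamini-Hochberg for all genes tested. Hsd17b7, a sterol 3-keto reductase, followed the same course, from 164, 152, 195 and 153 CPM to 33.8 and 45.1 CPM at 4 h and 91.3, 74.5, 110.3 and 123 CPM at 24 h. It had the largest fall of any sterol enzyme at 4 h, -1.995 ± 0.22 (adjusted p = 4.39e-08), and less of one at 24 h, -0.77 ± 0.13 (adjusted p = 2.14e-05). Between 4 h and 24 h Hsd17b7 rose again by 1.22 ± 0.24 (adjusted p = 0.000734), the ranges being separate.

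Hmgcs1 read 473, 504, 402 and 477 CPM in unstimulated WT cells, 259 and 258 CPM at 4 h and 305, 268, 337 and 350.2 CPM at 24 h. Cyp51 read 529.9, 503, 536 and 547 CPM, then 237 and 247 CPM, then 299, 300, 365 and 377 CPM. In both genes all treated libraries lay below all unstimulated ones and the 4 h libraries lay lowest. Hmgcs1 fell by 0.84 ± 0.17 (adjusted p = 0.000859) at 4 h and Cyp51 fell by 1.12 ± 0.15 (adjusted p = 1.31e-06). At 24 h the values were -0.56 ± 0.13 (adjusted p = 0.00103) and -0.66 ± 0.11 (adjusted p = 1.24e-05). Msmo1 fell at 4 h too (-0.84 ± 0.19, adjusted p = 0.00238). These 5 falls at 4 h kept their call under every alternative run, those that leave out a library included.

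The other 7 sterol falls at 4 h each lost their call without at least 1 library of the WT 4 h pair. They were Acat2, which joins acetyl groups at the entry of the pathway (-0.58 ± 0.18), mevalonate kinase Mvk (-0.64 ± 0.17), the isomerase Idi1 (-1.33 ± 0.43), squalene synthase Fdft1 (-0.74 ± 0.17), the demethylating dehydrogenase Nsdhl (-0.70 ± 0.20), the desaturase Sc5d (-0.56 ± 0.14) and the last-step reductase Dhcr7 (-1.19 ± 0.25). Acat2 lost its call without any 1 of WT unstimulated replicates 2 or 3 or WT 4 h replicate 4 (log2 -0.55 to -0.27, adjusted p 0.0657 to 0.595), and Mvk without WT 4 h replicate 4 (-0.36, adjusted p = 0.496). Idi1, with 1 to 21 counts per library, lost it without any 1 of WT unstimulated replicates 1, 2 or 3 or WT 4 h replicates 1 or 4 (log2 -2.28 to -1.10, adjusted p 0.0538 to 0.222). Fdft1 lost it without WT 4 h replicate 1 (-0.63, adjusted p = 0.0593) and without WT 4 h replicate 4 (-1.07, adjusted p = 0.0568), Nsdhl without WT unstimulated replicate 3 (-0.59, adjusted p = 0.0651) and without WT 4 h replicate 1 (-0.54, adjusted p = 0.157), Sc5d without WT 4 h replicate 1 (-0.50, adjusted p = 0.064) and Dhcr7 without WT 4 h replicate 4 (-1.38, adjusted p = 0.0894). Not called were Pmvk (-0.30), Mvd (-0.01), Fdps (-0.10), Lss (-0.18), Tm7sf2 (-0.55) and Ebp (0.04).

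By 24 h nearly the whole pathway was lower in WT cells. Of the 37 genes 4 rose and 25 fell, where 9.63% of all genes rose and 11.5% fell. Of the 18 sterol enzymes 17 fell and 0 rose, with a median of -0.67 beside 0.03 over all genes. Ebp, a sterol isomerase, was the 1 not called (-0.20 ± 0.12, adjusted p = 0.273). The stroma or epithelium sum was 311 to 335 CPM at 24 h, above its unstimulated range of 264 to 305 CPM, and its part in the result was not tested. Phosphomevalonate kinase Pmvk read 137, 159, 158 and 163 CPM in unstimulated cells, 169 and 105 CPM at 4 h and 79.2, 75.5, 68.6 and 71.2 CPM at 24 h. The 4 h libraries fell on both sides of the unstimulated range, whereas all 24 h libraries lay below it, a change of -1.06 ± 0.13 (adjusted p = 3.34e-08). Mvk read 81.3, 107, 105 and 111 CPM unstimulated and 61.8, 46.4, 49.2 and 44.5 CPM at 24 h, without overlap (-1.002 ± 0.12, adjusted p = 8.29e-08). Tm7sf2, a sterol C14 reductase of low count, stood at 19.3 to 26.8 CPM unstimulated and at 4.45 to 9.40 CPM at 24 h (-1.94 ± 0.31, adjusted p = 8.39e-06). Smaller falls that lost their call with single libraries were those of Mvd (-0.36 ± 0.13), lost without any 1 of WT unstimulated replicates 1, 2 or 4 or WT 24 h replicates 1, 2 or 3 (log2 -0.38 to -0.28, adjusted p 0.0618 to 0.181), Lss (-0.35 ± 0.12), lost without any 1 of WT unstimulated replicates 2, 3 or 4 or WT 24 h replicates 1, 3 or 4 (log2 -0.37 to -0.25, adjusted p 0.05 to 0.258), Dhcr7 (-0.51 ± 0.16), lost without any 1 of WT unstimulated replicates 1 or 3 or WT 24 h replicates 3 or 4 (log2 -0.49 to -0.46, adjusted p 0.0505 to 0.0924), and Msmo1 (-0.39 ± 0.13), lost without any 1 of WT unstimulated replicates 1, 2 or 4 or WT 24 h replicates 1 or 2 (log2 -0.38 to -0.30, adjusted p 0.0657 to 0.143).

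**Figure D2:**
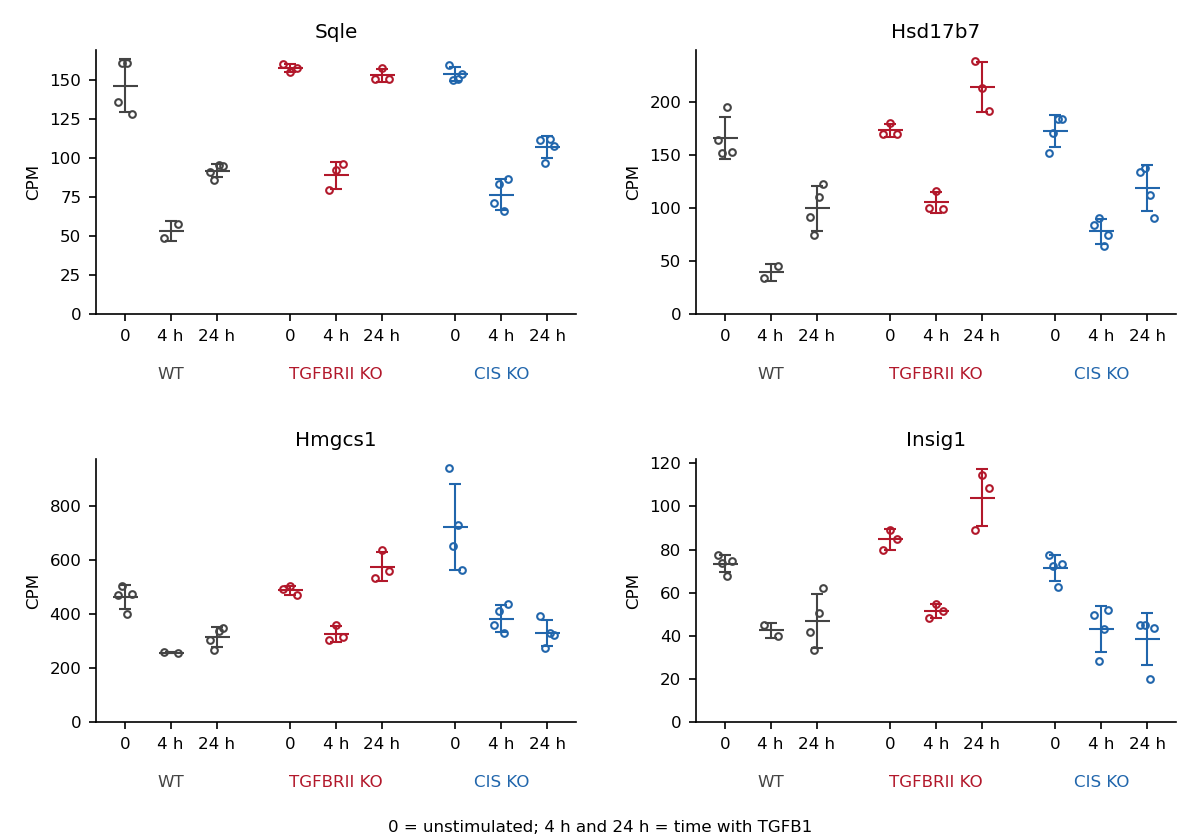
Levels of Sqle, Hsd17b7, Hmgcs1 and Insig1 (TMM-scaled CPM) in each library, by genotype and condition. Points are libraries, horizontal bars group means and error bars SD; Hsd17b7 in WT fell to 33.8 and 45.1 CPM at 4 h and stood at 74.5 to 123 CPM at 24 h, while in TGFBRII KO it stood at 192 to 239 CPM at 24 h.

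The sensors did not move together. Insig1, which retains SCAP and is itself an SREBP target, went from 77.5, 73.7, 67.9 and 74.6 CPM in unstimulated WT cells to 45.1 and 40.1 CPM at 4 h and 41.6, 33.5, 50.7 and 62.3 CPM at 24 h, below the unstimulated range in every library. Its fall was -0.81 ± 0.24 (adjusted p = 0.0224) at 4 h and -0.66 ± 0.17 (adjusted p = 0.00319) at 24 h, and the 4 h call was lost without WT 4 h replicate 1 (-0.87, adjusted p = 0.0613) and without WT 4 h replicate 4 (-0.70, adjusted p = 0.292). Insig2, a second INSIG that does not depend on SREBP in the same way, went the other way at 4 h, from 76.3, 74.9, 75.5 and 87.02 CPM to 113 and 107 CPM (0.47 ± 0.14, adjusted p = 0.0387), and read 79.2, 80.9, 89.4 and 92 CPM at 24 h. The 4 h libraries lay above all unstimulated ones, but the call was lost without any 1 of WT unstimulated replicates 2 or 3 or WT 4 h replicates 1 or 4 (log2 0.44 to 0.53, adjusted p 0.0635 to 0.247). Srebf1, the SREBP gene that LXR is known to raise, read 125, 83.7, 63.7 and 91.2 CPM, then 154 and 163 CPM at 4 h, then 57.7, 138, 133 and 142 CPM at 24 h. It rose by 0.85 ± 0.28 (adjusted p = 0.0401) at 4 h, a call lost without any 1 of WT unstimulated replicates 2, 3 or 4 or WT 4 h replicates 1 or 4 (log2 0.69 to 0.87, adjusted p 0.0542 to 0.287), and was not called at 24 h (0.41 ± 0.22), where replicate 1 lay far below the other libraries. Srebf2, the SREBP gene tied to cholesterol, was not called at either time (0.50 ± 0.26 and 0.17 ± 0.20). Stard4, which carries cholesterol between membranes, was not called at 4 h (-0.36 ± 0.15) and fell at 24 h from 193, 194, 243 and 184 CPM to 116, 82.01, 121 and 108 CPM, without overlap (-0.96 ± 0.12, adjusted p = 5.89e-08). Scap rose at 24 h (0.36 ± 0.13, adjusted p = 0.0478), a call lost without any 1 of WT unstimulated replicates 2, 3 or 4 or WT 24 h replicates 1, 3 or 4 (log2 0.27 to 0.39, adjusted p 0.0566 to 0.221).

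Of the 9 fatty acid enzymes 1 fell at 4 h (median -0.53) and 6 fell at 24 h (median -0.73), where 5.03% and 11.5% of all genes fell, and 0 rose at either time. At an unadjusted p under 0.05, counted for the listed genes alone, the numbers lower were 5 and 7. The 4 h group had 2 libraries where 24 h had 4. The 1 called at 4 h was Elovl6, which lengthens C16 fatty acids: it went from 114, 125, 135 and 87.02 CPM to 48.9 and 58.9 CPM (-1.06 ± 0.26, adjusted p = 0.00508) and to 63.1, 59.4, 37.3 and 29.7 CPM at 24 h (-1.27 ± 0.19, adjusted p = 2.26e-06). All treated libraries lay below the unstimulated ones, though the 4 h call was lost without WT 4 h replicate 4 (-1.26, adjusted p = 0.0719). Scd1, the desaturase that makes oleate (chr19:44394450-44407709), read 125, 154, 169 and 137 CPM unstimulated, 82.7 and 122 CPM at 4 h and 38.9, 48.6, 31.3 and 31.2 CPM at 24 h. The 3 ranges did not overlap. The change was -0.43 ± 0.20 at 4 h, not called (adjusted p = 0.158), and -1.94 ± 0.18 (adjusted p = 1.01e-10) at 24 h. Its neighbour Scd2 (chr19:44293676-44306864) read 82.6, 84.9, 97.2 and 93.9 CPM unstimulated, 71.4 and 159 CPM at 4 h, on both sides of that range, and 36.3, 35.6, 64.1 and 57.9 CPM at 24 h (-0.93 ± 0.25, adjusted p = 0.00563). Scd1 and Scd2 are close paralogs, and the sources used here do not state how reads shared by both were counted.

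Fads2, the delta-6 desaturase that starts the synthesis of polyunsaturated fatty acids (chr19:10062765-10101503), showed the steepest fall of all 37 genes in WT cells. It read 17.8, 21.2, 25.99 and 27.6 CPM unstimulated, 11.3 and 15.03 CPM at 4 h and 2.69, 2.16, 0 and 0 CPM at 24 h. Behind the 24 h values stood 2, 2, 0 and 0 counts, against 14 to 31 counts in the unstimulated libraries, and the ranges were separate. The fitted change was -3.97 ± 0.49 (adjusted p = 8.76e-08), a value that at such counts depends on the prior count of the fit. Fads1, its partner delta-5 desaturase, fell by 0.73 ± 0.21 (adjusted p = 0.0084), and Acaca, acetyl-CoA carboxylase, the committed step of fatty acid synthesis, fell by 0.67 ± 0.17 (adjusted p = 0.00405). Acly, which makes cytosolic acetyl-CoA from citrate (-0.23 ± 0.10), Acss2, which makes it from acetate (0.30 ± 0.15), and Fasn (-0.72 ± 0.36) were not called at 24 h.

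**Figure D3:**
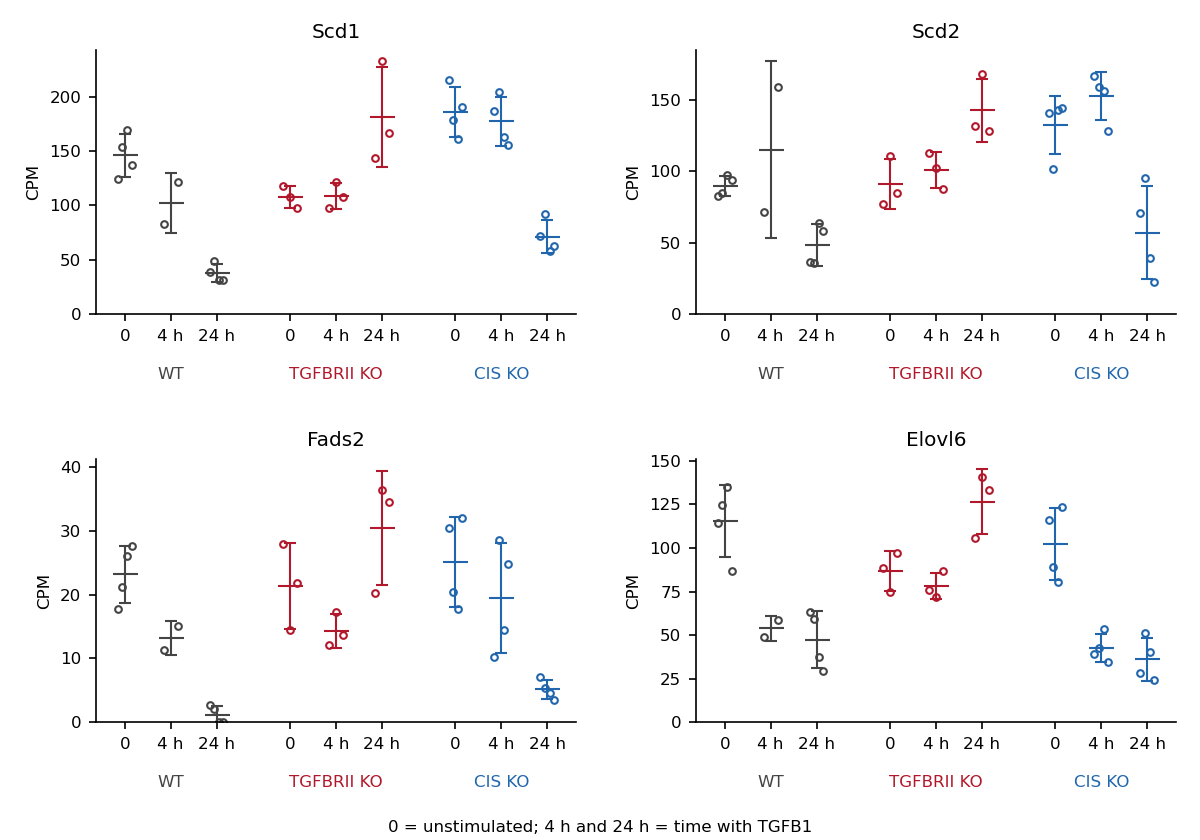
Levels of Scd1, Scd2, Fads2 and Elovl6 (TMM-scaled CPM) in each library, by genotype and condition. Points are libraries, horizontal bars group means and error bars SD; Fads2 in WT was at 0 to 2.69 CPM at 24 h, against 20.2 to 36.4 CPM in TGFBRII KO.

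Of the genes listed among the 38 as LXR targets, both with ample counts, Abcg1 and Mylip, rose in WT cells. Of 7 further LXR partners and targets, 1 rose at 4 h and 0 at 24 h, as given below. Abcg1, which exports cholesterol to lipoproteins (chr17:31057694-31117984), read 47.02, 37.5, 36.1 and 26.2 CPM in unstimulated WT cells, 97.7 and 154 CPM at 4 h and 57.7, 78.8, 76.01 and 65.3 CPM at 24 h. No range overlapped another. It rose by 1.88 ± 0.19 (adjusted p = 1.3e-08) at 4 h and by 0.92 ± 0.17 (adjusted p = 8.1e-05) at 24 h. Mylip, the ubiquitin ligase IDOL, which sends lipoprotein receptors for degradation, read 118, 76.2, 62.03 and 74.6 CPM, then 132 and 160.3 CPM, then 114, 181, 149 and 151 CPM. Replicate 1 at 24 h lay just under the highest unstimulated library and all others lay above. Mylip rose by 0.89 ± 0.21 (adjusted p = 0.00357) at 4 h, a call lost without WT 4 h replicate 4 (0.69, adjusted p = 0.222), and by 0.88 ± 0.16 (adjusted p = 5.62e-05) at 24 h. Nr1h2 was not called at 4 h (0.42 ± 0.17) and rose by 0.39 ± 0.12 (adjusted p = 0.0199) at 24 h, a call lost without any 1 of WT unstimulated replicates 3 or 4 or WT 24 h replicate 4 (log2 0.31 to 0.36, adjusted p 0.0629 to 0.0992). Abca1, the other sterol exporter, was not called at either time (-0.40 ± 0.83 and 0.68 ± 0.50).

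**Figure D4:**
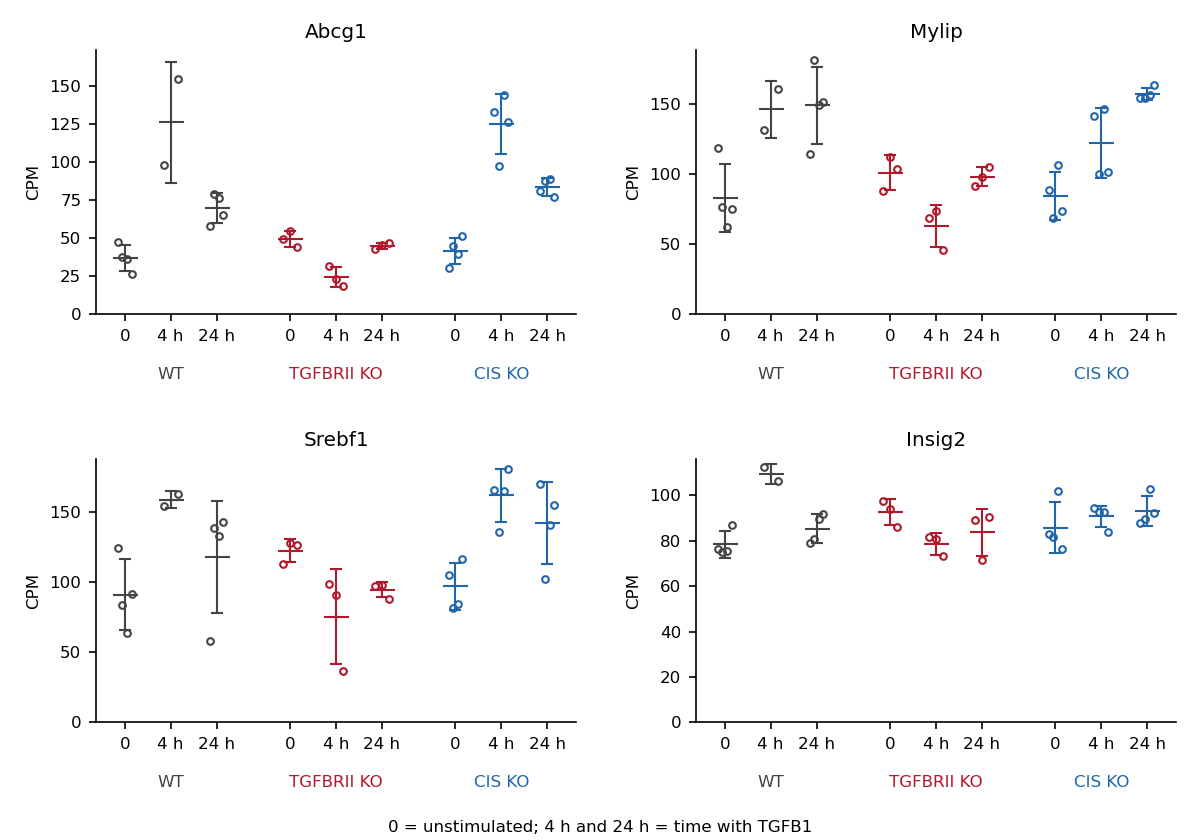
Levels of Abcg1, Mylip, Srebf1 and Insig2 (TMM-scaled CPM) in each library, by genotype and condition. Points are libraries, horizontal bars group means and error bars SD; Abcg1 at 4 h was at 97.7 and 154 CPM in WT and 97.5 to 144 CPM in CIS KO, but at 18.3 to 31.3 CPM in TGFBRII KO.

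Set against 4 h directly, WT cells at 24 h had 4 of the 37 genes higher and 7 lower, where 3% of all genes were higher and 4.57% lower. Sqle (0.73 ± 0.16, adjusted p = 0.00827) and Hsd17b7, given above, had come back in part. Scd1 (-1.51 ± 0.24), Scd2 (-1.47 ± 0.30) and Fads2 (-3.24 ± 0.69) were lower than at 4 h, and Abcg1 fell by 0.96 ± 0.18. Apart from Hsd17b7 these depended on the 2 libraries at 4 h. Sqle lost its call without WT 4 h replicate 1 (0.66, adjusted p = 0.0618) and without WT 4 h replicate 4 (0.91, adjusted p = 0.123), Scd1 without WT 4 h replicate 4 (-1.10, adjusted p = 0.114), Scd2 without WT 4 h replicate 4 (-0.59, adjusted p = 0.593), Fads2 without WT 4 h replicate 4 (-2.94, adjusted p = 0.134) and Abcg1 without WT 4 h replicate 4 (-0.48, adjusted p = 0.388). In all, 3 of the 37 genes were called without WT 4 h replicate 4 and 7 without WT 4 h replicate 1. DESeq2 called 2 higher and 7 lower. Over all genes it called 109 higher and 391 lower and library size alone gave 426 and 364, in place of 308 and 470. The myeloid sum (17.9 to 23.7 CPM at 24 h, 37.6 to 48.9 CPM at 4 h) and the stroma or epithelium sum (311 to 335 CPM and 348 to 421 CPM) were also lower without overlap, and their part was not tested.

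Before stimulation the TGFBRII KO and WT cells did not differ by test in any of the 37 genes. The quasi-likelihood test and DESeq2 each called 0, where the former called 0.0681% of all genes higher and 0.0779% lower. At an unadjusted p under 0.05, which was not counted over all genes, 1 of the 37 was higher and 3 lower. The summed sterol level was 2940 to 3074 CPM in TGFBRII KO and overlapped that of WT. The T cell sum did not overlap, at 600 to 615 CPM in TGFBRII KO and 484 to 535 CPM in WT.

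At 4 h the sterol enzymes fell in TGFBRII KO cells as well, but the LXR targets fell with them. Of the 37 genes 0 rose and 16 fell, where 4.57% of all genes rose and 3.45% fell. Of the 18 sterol enzymes 12 fell, with a median of -0.68, and the summed level went to between 1925 and 2095 CPM. Sqle read 161, 156 and 158 CPM unstimulated and 79.5, 92.2 and 96.02 CPM at 4 h (-0.82 ± 0.11, adjusted p = 8.01e-06). Hsd17b7 read 169.7, 181 and 170.1 CPM and then 99.96, 117 and 99.5 CPM (-0.73 ± 0.15, adjusted p = 0.00157). Both genes had separate ranges. The largest sterol fall here was that of Dhcr7 (-0.99 ± 0.20, adjusted p = 0.00174), beside Nsdhl (-0.98 ± 0.18, adjusted p = 0.000547) and Fdft1 (-0.92 ± 0.14, adjusted p = 4.97e-05). Lss, lanosterol synthase, which closes the sterol ring, went from 73.5, 73.5 and 75.3 CPM to 36.1, 41.8 and 44.6 CPM without overlap (-0.86 ± 0.16, adjusted p = 0.000664). Hmgcs1 fell by 0.58 ± 0.15, a call lost without TGFBRII KO 4 h replicate 1 (-0.52, adjusted p = 0.0606), and Insig1 fell by 0.72 ± 0.18, lost without TGFBRII KO unstimulated replicate 2 (-0.66, adjusted p = 0.0597) and without TGFBRII KO 4 h replicate 1 (-0.66, adjusted p = 0.0586). The summed T cell markers moved alongside, from 600 to 615 CPM down to 446 to 504 CPM, and their part in the result was not tested.

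Acss2, acetyl-CoA synthetase, was the fatty acid enzyme that fell in TGFBRII KO at 4 h, from 68.4, 94.01 and 57.1 CPM to 33.7, 31.7 and 24.01 CPM, with no overlap (-1.30 ± 0.20, adjusted p = 7.39e-05). Abcg1 fell from 49.4, 54.2 and 43.7 CPM to 31.3, 23.04 and 18.3 CPM, all 4 h libraries being lower (-1.02 ± 0.23, adjusted p = 0.00405). Mylip fell from 87.4, 112 and 103 CPM to 68.7, 73.4 and 45.7 CPM (-0.71 ± 0.20, adjusted p = 0.0262), again without overlap. The Mylip call was lost without any 1 of TGFBRII KO unstimulated replicates 2 or 3 or TGFBRII KO 4 h replicate 3 (log2 -0.67 to -0.51, adjusted p 0.0784 to 0.205). Srebf1, at 98.8, 90.7 and 36.6 CPM after 113, 128 and 126 CPM unstimulated, was not called (-0.72 ± 0.26, adjusted p = 0.0845).

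The genotypes were then compared through the difference of their 4 h responses, knockout minus WT. Of the 37 genes 1 was higher and 4 lower, where 3.96% of all genes were higher and 3.61% lower. Abcg1 differed by -2.89 ± 0.30 (adjusted p = 7.28e-08) and Mylip by -1.60 ± 0.29 (adjusted p = 0.000374), each above 0 in WT and below 0 in TGFBRII KO. Srebf1 differed by -1.57 ± 0.38 (adjusted p = 0.00693), a call lost without WT 4 h replicate 4 (-1.51, adjusted p = 0.0805), and Insig2 by -0.71 ± 0.18 (adjusted p = 0.0209), lost without any 1 of WT 4 h replicates 1 or 4, TGFBRII KO unstimulated replicate 1 or TGFBRII KO 4 h replicate 3 (log2 -0.77 to -0.66, adjusted p 0.0578 to 0.128). Hsd17b7 was the 1 higher gene (1.27 ± 0.27, adjusted p = 0.00249), having fallen less in the knockout. For the other sterol enzymes no difference of response was called, and the 18 had a median difference of -0.09. For Sqle the difference was 0.59 ± 0.19 with a 95% interval of 0.23 to 0.96, for Hmgcs1 0.26 ± 0.22 with -0.18 to 0.70, and for Cyp51 0.45 ± 0.19 with 0.07 to 0.82. Without WT 4 h replicate 4, 3 genes were called. Scaling by library size alone called 3 higher and 4 lower. Over all genes library size alone gave 491 higher and 287 lower in place of 407 and 371.

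Compared level against level at 4 h, TGFBRII KO had 2 of the 37 genes higher and 4 lower than WT, where 5.63% of all genes were higher and 6.17% lower. The higher ones were Hsd17b7 (1.32 ± 0.24, adjusted p = 0.00015) and Sqle (0.69 ± 0.16, adjusted p = 0.0105), and the Sqle call was lost without any 1 of WT 4 h replicates 1 or 4 or TGFBRII KO 4 h replicate 3 (log2 0.63 to 0.87, adjusted p 0.0542 to 0.131). The lower ones were Abcg1 (-2.48 ± 0.22, adjusted p = 3.77e-10), Mylip (-1.29 ± 0.23, adjusted p = 0.000119), Srebf1 (-1.11 ± 0.30, adjusted p = 0.0111) and Lss (-0.88 ± 0.19, adjusted p = 0.00161). The libraries of Abcg1 did not overlap, 18.3 to 31.3 CPM against 97.7 and 154 CPM. Mylip lost its call without WT 4 h replicate 4 (-1.08, adjusted p = 0.0619), Srebf1 without WT 4 h replicate 4 (-1.05, adjusted p = 0.174) and without TGFBRII KO 4 h replicate 3 (-0.75, adjusted p = 0.0976) and Lss without WT 4 h replicate 4 (-0.55, adjusted p = 0.436), and 3 genes were called without WT 4 h replicate 4. DESeq2 called 1 higher and 4 lower, and with depth as a covariate 4 were higher and 4 lower. The myeloid sum was lower in TGFBRII KO (21.7 to 33.7 CPM, beside 37.6 to 48.9 CPM), and its part was not tested.

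At 24 h no change against unstimulated cells was called in TGFBRII KO. The quasi-likelihood test called 0 of the 37 genes and DESeq2 called 0, while 0.0195% of all genes rose and 0% fell. At an unadjusted p under 0.05, which was not counted over all genes, 14 of the 37 were higher and 0 lower. Fitted on the 6 libraries of this comparison alone, 8 of the 37 were called higher. That fit called 73 genes higher and 133 lower over all genes. The summed sterol level was 3408 to 3748 CPM, above all 3 unstimulated libraries. Sqle read 151, 158 and 151 CPM, overlapping its unstimulated libraries (-0.04 ± 0.10). Hsd17b7 read 239, 214 and 192 CPM and Hmgcs1 534, 638 and 559.6 CPM, above their unstimulated ranges but not called (0.31 ± 0.13 and 0.24 ± 0.14). Scd1 read 144, 232 and 167 CPM after 118, 107 and 97.2 CPM unstimulated, 0.75 ± 0.16 with an adjusted p = 0.132. The myeloid sum was 22.6 to 31.4 CPM, below its unstimulated range of 32.8 to 49.4 CPM.

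Against 4 h the sterol enzymes of TGFBRII KO were higher again. In this genotype 24 of the 37 genes were higher at 24 h than at 4 h and 0 lower, where 4.3% of all genes were higher and 3.86% lower. They included 16 of the 18 sterol enzymes, with a median of 0.92 beside 0.01 over all genes. Nsdhl rose by 1.51 ± 0.17 (adjusted p = 7.62e-07), Tm7sf2 by 1.54 ± 0.29 (adjusted p = 0.000733), Dhcr7 by 1.36 ± 0.19 (adjusted p = 1.29e-05) and Acss2 by 1.43 ± 0.20 (adjusted p = 1.02e-05). Insig1 rose by 1.01 ± 0.18 (adjusted p = 0.000261). Abcg1 rose too (0.89 ± 0.23, adjusted p = 0.0129), to 42.7, 45.2 and 46.4 CPM, a call lost without TGFBRII KO 4 h replicate 3 (0.70, adjusted p = 0.102). The T cell sum was higher as well, at 538 to 614 CPM beside 446 to 504 CPM at 4 h, and its part was not tested.

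**Figure D5:**
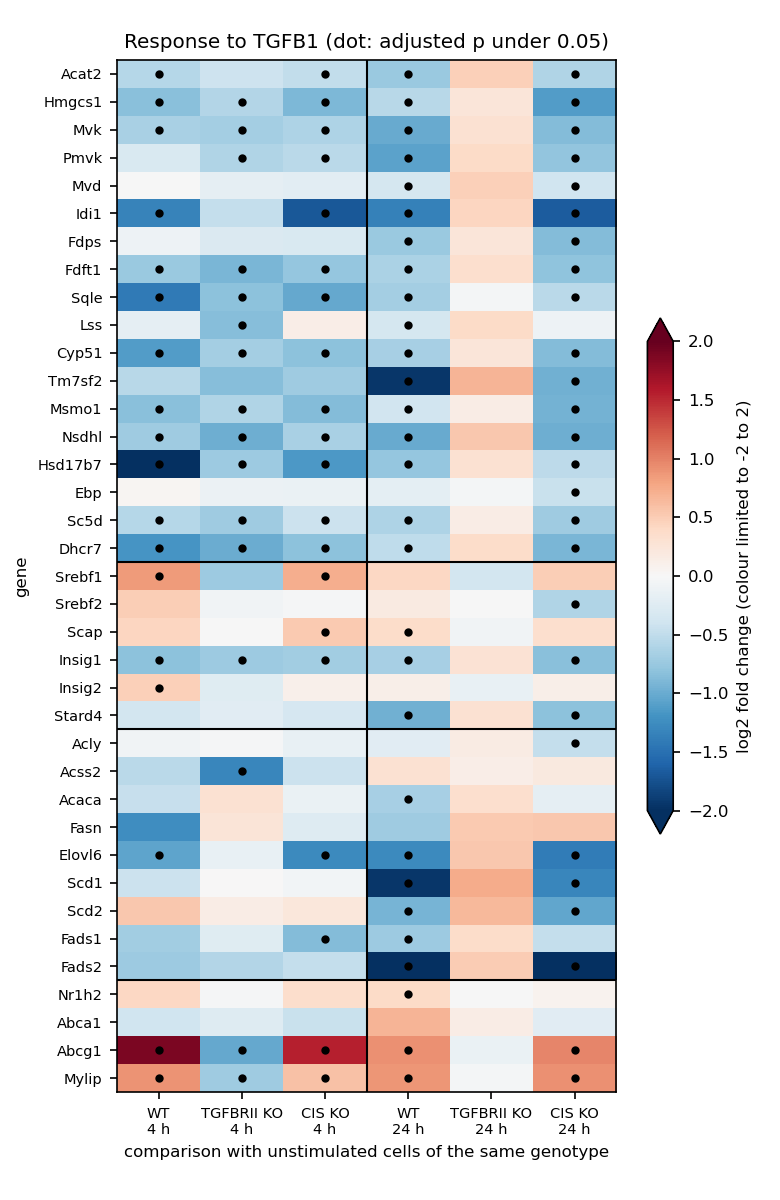
Heat map of the log2 fold change of the 37 tested genes (rows, by role) in 6 responses to TGFB1 (columns: 3 genotypes at 4 h and 24 h), with the colour scale limited to -2 to 2. A dot marks an adjusted p under 0.05; the 24 h column of TGFBRII KO holds 0 dots, and Abcg1 and Mylip are the LXR targets that fell in TGFBRII KO and rose in WT and CIS KO at 4 h.

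The difference of the 24 h responses, TGFBRII KO minus WT, covered most of the pathway. Of the 37 genes 24 were higher and 2 lower, where 6.89% of all genes were higher and 3.86% lower. Among the 18 sterol enzymes 16 were higher (median difference 0.94), among the 9 fatty acid enzymes 6 (median 1.23), and of the regulators Insig1 and Stard4. The differences were 1.45 ± 0.18 (adjusted p = 2.57e-07) for Pmvk, 1.31 ± 0.18 (adjusted p = 1.18e-06) for Mvk, 2.62 ± 0.41 (adjusted p = 1.47e-05) for Tm7sf2 and 1.54 ± 0.21 (adjusted p = 1.45e-06) for Nsdhl. Sqle differed by 0.64 ± 0.14 (adjusted p = 0.00102) and Stard4 by 1.27 ± 0.17 (adjusted p = 8.96e-07). Ebp (0.16 ± 0.18, 95% interval -0.20 to 0.52) and Msmo1 (0.54 ± 0.20, 95% interval 0.16 to 0.93) were the 2 sterol enzymes not called. Nsdhl and Ebp lie on chromosome X, and a part of sex composition in their values was not tested. The called differences given here for Pmvk, Mvk, Tm7sf2, Nsdhl, Sqle and Stard4 kept their call under every alternative run.

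Fads2, Scd1 and Elovl6 had the largest differences among the fatty acid enzymes. Scd1 stood at 144, 232 and 167 CPM in TGFBRII KO and 38.9, 48.6, 31.3 and 31.2 CPM in WT at 24 h, so that the lowest knockout library was above the highest WT library. The response difference was 2.69 ± 0.24 (adjusted p = 7.89e-10). Fads2 stood at 20.2, 36.4 and 34.5 CPM against 2.69, 2.16, 0 and 0 CPM, a response difference of 4.48 ± 0.61 (adjusted p = 1.4e-06) on the few counts given above. Elovl6 stood at 106, 141 and 133 CPM against 63.1, 59.4, 37.3 and 29.7 CPM (1.81 ± 0.27, adjusted p = 6.12e-06). Neither gene overlapped between the genotypes. The 2 genes with a lower response in the knockout were Abcg1 (-1.05 ± 0.26, adjusted p = 0.00568) and Mylip (-0.93 ± 0.25, adjusted p = 0.00966). Acaca (1.002 ± 0.26) lost its call without TGFBRII KO 24 h replicate 2 (0.84, adjusted p = 0.052), and Fads1 (1.10 ± 0.31) without TGFBRII KO unstimulated replicate 2 (0.996, adjusted p = 0.0546) and without TGFBRII KO 24 h replicate 2 (0.97, adjusted p = 0.0682).

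Level against level at 24 h, 26 of the 37 genes were higher in TGFBRII KO than in WT and 2 lower, where 11.5% of all genes were higher and 10.1% lower. This comparison shares its 24 h libraries with the difference of responses. Sterol enzymes were higher in 17 of 18 cases (median 0.93) and fatty acid enzymes in 7 of 9 (median 0.86). Scd1 was higher by 2.23 ± 0.18 (adjusted p = 7.66e-12), Pmvk by 1.29 ± 0.13 (adjusted p = 1.47e-09) and Stard4 by 1.28 ± 0.12 (adjusted p = 2.87e-10). Abcg1 (-0.64 ± 0.18) and Mylip (-0.61 ± 0.17) were the 2 lower genes. The T cell sum was also higher in TGFBRII KO, at 538 to 614 CPM beside 436 to 508 CPM, and its part was not tested.

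CIS KO cells started from higher levels of a few sterol genes. In unstimulated cells 4 of the 37 genes were higher than in WT and 0 lower, where 3.19% of all genes were higher and 2.96% lower. Hmgcs1 read 942, 655, 732 and 566 CPM, above all 4 WT libraries (0.63 ± 0.12, adjusted p = 0.00455). Idi1 (0.84 ± 0.25) lost its call without any 1 of WT unstimulated replicates 2, 3 or 4 or CIS KO unstimulated replicates 1, 2 or 3 (log2 0.77 to 0.85, adjusted p 0.0671 to 0.163). Msmo1 (0.57 ± 0.13) lost it without WT unstimulated replicate 3 (0.53, adjusted p = 0.0703) and without CIS KO unstimulated replicate 1 (0.43, adjusted p = 0.082), and Srebf2 (0.65 ± 0.20) without any 1 of WT unstimulated replicates 2 or 3 or CIS KO unstimulated replicates 1, 2 or 3 (log2 0.47 to 0.68, adjusted p 0.0727 to 0.251). CIS KO unstimulated replicate 1 was highest in Hmgcs1, at 942 CPM, and in the summed sterol level, at 4532 CPM, where the group began at 3278 CPM. Leaving out that library, or WT unstimulated replicate 3, left 1 gene called, leaving out WT unstimulated replicate 2 or CIS KO unstimulated replicate 2 or 3 left 2, and leaving out CIS KO unstimulated replicate 4 gave 7. Total counts were 392266 to 711659 in unstimulated CIS KO and 712432 to 1135104 in WT, without overlap. Srebf2 counts rose less than in proportion to library size (slope 0.35, where the median of all genes was 1.18), and with depth as a covariate its difference was 0.15 (adjusted p = 0.729). The slopes of Hmgcs1 (0.81) and Msmo1 (0.88) were also below that median, and that of Idi1 (1.45) above it. The depth covariate moved the median difference of the 18 sterol enzymes from 0.18 to 0.07. With depth as a covariate, or with DESeq2, 2 of the 37 genes were called. Over all genes library size alone gave 279 higher and 520 lower, and DESeq2 211 and 121, in place of 328 and 304. The stroma or epithelium sum was 343 to 377 CPM in unstimulated CIS KO and 264 to 305 CPM in WT, and its part was not tested.

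After TGFB1 most sterol enzymes fell in CIS KO too, and Abcg1 and Mylip rose. At 4 h 4 of the 37 genes rose and 16 fell, where 7.76% of all genes rose and 6.3% fell. Of the 18 sterol enzymes 13 fell and 0 rose (median -0.68). Sqle went from 160.2, 150.3, 151 and 154 CPM to 71.3, 83.2, 65.9 and 86.5 CPM (-1.02 ± 0.11, adjusted p = 1.74e-08) and Hmgcs1 from the levels above to 359, 411, 331 and 437 CPM (-0.91 ± 0.13, adjusted p = 2.82e-06), both without overlap. Hsd17b7 fell by 1.15 ± 0.15 (adjusted p = 8.17e-07) and Elovl6 fell by 1.27 ± 0.23 (adjusted p = 0.000111). Abcg1 rose from 30.4, 44.5, 39.3 and 51.3 CPM to 132, 97.5, 144 and 126 CPM, with separate ranges (1.55 ± 0.18, adjusted p = 3.16e-08). Scap rose by 0.53 ± 0.14 (adjusted p = 0.01). Mylip rose by 0.59 ± 0.19, a call lost without any 1 of CIS KO unstimulated replicates 2 or 4 or CIS KO 4 h replicates 1 or 3 (log2 0.50 to 0.52, adjusted p 0.104 to 0.125), and Srebf1 by 0.73 ± 0.24, lost without any 1 of CIS KO unstimulated replicates 2 or 3 or CIS KO 4 h replicates 1, 3 or 4 (log2 0.66 to 0.73, adjusted p 0.0664 to 0.104). The stroma or epithelium sum went from 343 to 377 CPM up to 380 to 487 CPM, and its part was not tested.

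At 24 h 2 of the 37 genes rose in CIS KO and 25 fell, where 12.3% of all genes rose and 11.7% fell. Sterol enzymes fell in 17 of 18 cases (median -0.84), Lss being the exception (-0.10 ± 0.13), and 5 of 9 fatty acid enzymes fell (median -0.48). Hmgcs1 read 393, 275, 332 and 326 CPM (-1.12 ± 0.13, adjusted p = 2.8e-08), below every unstimulated CIS KO library. Scd1 read 215, 178, 161 and 190.1 CPM unstimulated, 187, 204, 163 and 156 CPM at 4 h, with overlap, and 72.2, 91.7, 57.7 and 62.7 CPM at 24 h, lower in every library (-1.31 ± 0.16, adjusted p = 9.85e-08). Fads2 read 30.4, 20.4, 17.7 and 31.9 CPM unstimulated and 7.08, 5.39, 4.68 and 3.48 CPM at 24 h (-2.22 ± 0.39, adjusted p = 5.79e-05). The 2 that rose were Abcg1, to 80.7, 87.7, 88.9 and 76.6 CPM (0.97 ± 0.18, adjusted p = 0.000105), and Mylip, to 154, 154, 156 and 164 CPM (0.92 ± 0.17, adjusted p = 0.000156), both above all unstimulated libraries. Acly fell by 0.48 ± 0.11 (adjusted p = 0.00109). Srebf2 (-0.60 ± 0.21) fell with a call lost without any 1 of CIS KO unstimulated replicates 1, 2 or 3 or CIS KO 24 h replicate 2 (log2 -0.63 to -0.32, adjusted p 0.05 to 0.27).

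Between 4 h and 24 h, 3 of the 37 genes rose in CIS KO and 7 fell, where 7.75% of all genes rose and 7.7% fell. Sqle rose by 0.48 ± 0.11 (adjusted p = 0.00771) and Hsd17b7 by 0.63 ± 0.15 (adjusted p = 0.00471), with Acss2 as the third. Scd1 fell by 1.26 ± 0.16 (adjusted p = 1.77e-06), Scd2 fell by 1.26 ± 0.23 (adjusted p = 0.000271) and Fads2 fell by 1.75 ± 0.42 (adjusted p = 0.00439). Abcg1 fell by 0.59 ± 0.14 (adjusted p = 0.00562). Over all genes this balance depended on the scaling: library size alone gave 1193 higher and 520 lower and moved the median of all genes to 0.124, depth as a covariate gave 427 and 647 and DESeq2 373 and 590, in place of 796 and 791. The stroma or epithelium sum went down to 336 to 370 CPM, and its part was not tested.

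By test the CIS KO responses did not differ from those of WT in any of the 37 genes. At 4 h the quasi-likelihood test and DESeq2 each called 0, and 0% of all genes were called in either direction. At an unadjusted p under 0.05, which was not counted over all genes, 1 gene of the 37 was higher. That gene was Hsd17b7 (0.84 ± 0.28, 95% interval 0.29 to 1.40), which fell less in CIS KO. At 24 h both tools called 0, where 1.21% of all genes were called higher and 0.127% lower. By unadjusted p under 0.05, which was not counted over all genes, 4 of the 37 were higher and 3 lower. Hmgcs1 differed by -0.56 ± 0.18 (95% interval -0.91 to -0.21) and Scd1 by 0.63 ± 0.24 (95% interval 0.16 to 1.11). Abcg1 differed by -0.32 ± 0.27 at 4 h (95% interval -0.84 to 0.20) and by 0.05 ± 0.25 at 24 h (95% interval -0.44 to 0.54). An adjusted p above the threshold does not show that the responses were equal. Without CIS KO unstimulated replicate 4, 2 genes were called at 24 h.

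Level against level, CIS KO and WT did not differ by test in the 37 genes at 4 h, with 0 called by either tool. At an unadjusted p under 0.05, which was not counted over all genes, 8 of the 37 were higher and 0 lower. By adjusted p, 0.136% of all genes were called higher and 0.136% lower. At 24 h 1 gene was higher and 0 lower, where 2.22% of all genes were higher and 1.05% lower. It was Scd1, at 72.2, 91.7, 57.7 and 62.7 CPM in CIS KO and 38.9, 48.6, 31.3 and 31.2 CPM in WT, without overlap (0.96 ± 0.20, adjusted p = 0.0026). With the libraries of this comparison fitted alone its adjusted p was 0.0504, and without CIS KO 24 h replicate 2, the deepest library, 6 genes were called. With depth as a covariate 5 were called, and over all genes 330 were then higher and 273 lower in place of 228 and 108. Marker sums that did not overlap were, at 4 h, type 2 and 3 innate lymphoid (8.23 to 49.4 CPM in CIS KO, 56.4 to 93.9 CPM in WT) and, at 24 h, myeloid (29.7 to 34.8 CPM, 17.9 to 23.7 CPM) and stroma or epithelium (336 to 370 CPM, 311 to 335 CPM).

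Genes of the same pathways outside the 38 were counted from lists. Of 10 tested sterol and isoprenoid enzymes 1 fell in WT at 4 h and 3 at 24 h, where 5.03% and 11.5% of all genes fell, and 0 rose. Nus1, a subunit of the enzyme that makes dolichol precursors, fell at both times (-0.52 ± 0.16 and -0.36 ± 0.12), while Fntb, the beta subunit of protein farnesyltransferase (-0.46 ± 0.17), and Erg28, a scaffold of sterol C4 demethylation (-0.37 ± 0.13), fell at 24 h. Each of these calls was lost without any 1 of several WT libraries. For Nus1 at 4 h these were unstimulated replicates 1, 2 and 4 and 4 h replicate 1 (log2 -0.495 to -0.345, adjusted p 0.0527 to 0.326). At 24 h they were unstimulated replicates 1, 2 and 4 and 24 h replicates 1 and 4 for Nus1 (adjusted p 0.0551 to 0.152), all 4 unstimulated replicates and 24 h replicates 2 and 4 for Fntb (adjusted p 0.0502 to 0.209), and unstimulated replicates 1, 2 and 4 and each of the 24 h replicates for Erg28 (adjusted p 0.0522 to 0.177). Of 17 other fatty acid synthesis, elongation and activation genes 2 fell at 4 h and 4 at 24 h in WT, beside the same shares of all genes, and 0 rose. Mid1ip1, an activator of acetyl-CoA carboxylase, fell at both times (-1.01 ± 0.20 and -0.57 ± 0.13), and Acsl3, which activates long-chain fatty acids, fell at 24 h (-1.24 ± 0.27, adjusted p = 0.000806) with a response difference of 2.04 ± 0.38 (adjusted p = 0.000226) between TGFBRII KO and WT.

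Of 13 genes of SREBP processing and turnover 2 rose in WT at 4 h, where 6.9% of all genes rose, and 2 rose and 2 fell at 24 h, where 9.63% rose and 11.5% fell. Mbtps1, the site-1 protease that cuts SREBP, rose at 4 h (0.57 ± 0.15), a call lost without WT 4 h replicate 1 (0.31, adjusted p = 0.328), and at 24 h (0.48 ± 0.11, adjusted p = 0.00183). The ubiquitin ligase Rnf145 was the other that rose at 4 h (0.69 ± 0.16), a call lost without WT 4 h replicate 1 (0.56, adjusted p = 0.0553), and the ligase Rnf139 the other at 24 h (0.41 ± 0.10, adjusted p = 0.00256). The falls at 24 h were those of Tmem97, a sterol-regulated membrane protein (-0.71 ± 0.14, adjusted p = 0.000253), and Lpin1, a phosphatidate phosphatase that restrains SREBP (-0.57 ± 0.10, adjusted p = 6.44e-05). Of 11 genes of sterol uptake, storage, transport and oxysterol metabolism 2 rose and 1 fell at 4 h, where 6.9% and 5.03% of all genes did, and 2 rose and 2 fell at 24 h, beside the shares just given. Lrp8, an apolipoprotein E receptor that Mylip is known to degrade, fell at both times (-1.88 ± 0.50 and -2.05 ± 0.36, adjusted p = 3.84e-05). Its 4 h call was lost without WT 4 h replicate 1 (-1.44, adjusted p = 0.102). In TGFBRII KO it rose at 4 h (1.08 ± 0.32), a call lost without any 1 of TGFBRII KO unstimulated replicates 1, 2 or 3 or TGFBRII KO 4 h replicates 1 or 3 (log2 0.93 to 1.13, adjusted p 0.0662 to 0.151), and the response difference was 2.95 ± 0.59 (adjusted p = 0.0011) at 4 h and 2.63 ± 0.49 (adjusted p = 0.000258) at 24 h. Gramd1a, which moves cholesterol from the plasma membrane to the endoplasmic reticulum, rose in WT at 4 h (1.07 ± 0.20, adjusted p = 0.000264) and at 24 h (0.65 ± 0.16, adjusted p = 0.00212).

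Of 7 further LXR partners and targets 1 rose in WT at 4 h, where 6.9% of all genes rose, and 0 were called at 24 h. Arl4c, an LXR target in macrophages, rose by 0.56 ± 0.13 at 4 h, a call lost without WT 4 h replicate 1 (0.39, adjusted p = 0.143), and in CIS KO by 0.51 ± 0.11 (adjusted p = 0.000999). In CIS KO at 24 h it was lower than in unstimulated cells (-0.34 ± 0.11), a call lost without CIS KO unstimulated replicate 1 (-0.24, adjusted p = 0.139) and without CIS KO 24 h replicate 2 (-0.30, adjusted p = 0.0798). In TGFBRII KO at 4 h the nuclear receptor corepressor Ncor1 rose (0.36 ± 0.11) and 2 of the 7 fell, where 3.45% of all genes fell: the transporter Abca7 (-0.60 ± 0.19) and the phosphodiesterase Smpdl3a (-0.56 ± 0.18). The Ncor1 call was lost without any 1 of TGFBRII KO unstimulated replicates 1, 2 or 3 or TGFBRII KO 4 h replicates 1, 2 or 3 (log2 0.32 to 0.40, adjusted p 0.0523 to 0.13), that of Abca7 without any 1 of TGFBRII KO unstimulated replicates 1, 2 or 3 or TGFBRII KO 4 h replicates 1 or 3 (log2 -0.66 to -0.43, adjusted p 0.067 to 0.261) and that of Smpdl3a without any 1 of TGFBRII KO unstimulated replicates 1, 2 or 3 or TGFBRII KO 4 h replicates 1 or 2 (log2 -0.59 to -0.43, adjusted p 0.089 to 0.199). Smpdl3a rose in CIS KO at 24 h (0.67 ± 0.19, adjusted p = 0.00767). Of 19 genes of fatty acid oxidation 1 rose at 4 h and 2 at 24 h in WT, numbers near the 6.9% and 9.63% of all genes that rose, and 0 fell. Cpt1a, which admits fatty acids to the mitochondrion, was among them, with 0.66 ± 0.10 (adjusted p = 2.58e-06) at 24 h and 0.49 ± 0.13 at 4 h, a call lost without WT 4 h replicate 4 (0.34, adjusted p = 0.442). Its 24 h response was lower in TGFBRII KO than in WT (-0.77 ± 0.16, adjusted p = 0.000686). Of 10 genes of the mTORC1 and AMPK complexes 1 rose in CIS KO at 24 h, a number near the 12.3% of all genes that rose there. No other was called in the 6 responses.

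Across the 9 group means of log2 CPM, the sterol enzymes differed in how closely each followed the mean of the list. Pearson's r was 0.984 for Sc5d, 0.966 for Fdft1 and 0.964 for Cyp51, and lowest for Lss (0.582) and Ebp (0.548). Each enzyme is itself part of that mean. Among the other genes Insig1 (0.869) and Stard4 (0.845) were most alike to it, while Scap (-0.625), Nr1h2 (-0.559), Mylip (-0.437), Abcg1 (-0.424), Insig2 (-0.371) and Srebf1 (-0.318) had negative values. Outside the 38, Slc17a8 (0.959) and Cmc2 (0.939) were among the most alike of all tested genes. The 9 points share their libraries' scaling, and these values are a description.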

How the data were processed

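The authors deposited raw counts per gene, 1 column per library, with Entrez identifiers. Per the submitters' processing notes they used FastQC, Trimmomatic, Subread, featureCounts, Picard and SAMtools with mm10; the sources used here do not state versions, the strand setting or the treatment of reads shared by paralogs. Per the labels' protocols, RNA of sorted NK cells was made into libraries with a directional kit. Column names were matched to sample titles. Identifiers were matched to RefSeq symbols (GRCm38.p6, 25275 of 27179).

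Tests on these counts used edgeR 4.0.16 (R 4.3.3). Low counts were filtered by filterByExpr, which left 10275 genes, and libraries were scaled by TMM. All 31 libraries in 9 groups were fitted together, because WT had 2 libraries at 4 h. Quasi-likelihood F-tests were two-sided, with Benjamini-Hochberg adjustment over all genes and a call at an adjusted p under 0.05. Standard errors are the fold change over the root of F, and 95% intervals are 1.96 of these either side. For genes whose spread is below counting noise, edgeR raises p, and the standard error is then smaller than p implies. Differences of responses are interaction contrasts. Scripts were tested on simulated data. Exon lengths per kilobase of 1000 bases came from GENCODE M21.

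The 38 genes and the other lists were chosen with earlier results of these data known, so the shares of them called are a description. The text names, per role, the genes with the smallest p in the WT responses, those called in a comparison of genotypes, those that moved against their role, and up to 3 called genes of each other list. Ncor1, Abca7 and Smpdl3a, beyond these, were chosen after their values were seen. Likeness used a prior count of 2. Alternatives were a replicate block, RLE factors, library size alone, no filter, depth as a covariate, DESeq2 1.42.0, the libraries of a comparison alone, and each library left out. 2 genes of other lists are not reported here.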

Additional observations from a re-analysis of the deposited data

Results flagged for a closer look

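Of 185 sets of 4 libraries examined for a library set apart from the other 3, 13 had one, where chance gives about 1 in 20. Among WT cells, Idi1 was high in unstimulated replicate 1 (25.4 CPM, others 16.6 to 17.5), Ebp low in unstimulated replicate 3 (143 CPM, others 174 to 180), Insig2 high in unstimulated replicate 4 (87.0 CPM, others 74.9 to 76.3) and Stard4 high in unstimulated replicate 3 (243 CPM, others 184 to 194). At 24 h in WT, Srebf1 was low in replicate 1 (57.7 CPM, others 133 to 142), and Scap (152 CPM, others 187 to 193) and Acly (138 CPM, others 174 to 177) were low in replicate 2. In CIS KO, Scd2 was low in unstimulated replicate 2 (102 CPM, others 141 to 144), Cyp51 low in 4 h replicate 3 (296 CPM, others 366 to 373), and Insig2 (84.0 CPM, others 92.6 to 94.2) and Fads1 (12.4 CPM, others 28.5 to 30.9) low in 4 h replicate 4. At 24 h in CIS KO, Srebf2 was low in replicate 2 (50.6 CPM, others 97.5 to 105), the deepest library, and Insig1 low in replicate 3 (20.3 CPM, others 43.5 to 45.3).

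The responses of TGFBRII KO and WT differed by the interaction test in 5 genes at 4 h and 26 at 24 h. At 4 h the log2 differences, knockout minus WT, were 1.27 for Hsd17b7, -0.71 for Insig2, -1.57 for Srebf1, -1.60 for Mylip and -2.89 for Abcg1. At 24 h the sterol enzymes differed by 0.64 (Sqle), 0.73 (Lss), 0.76 (Sc5d), 0.80 (Hmgcs1), 0.83 (Mvd), 0.88 (Dhcr7), 0.90 (Cyp51), 0.98 (Fdps and Fdft1), 1.08 (Hsd17b7), 1.21 (Acat2), 1.31 (Mvk), 1.45 (Pmvk), 1.54 (Nsdhl), 1.79 (Idi1) and 2.62 (Tm7sf2). Insig1 differed by 0.96 (0.955 before rounding) and Stard4 by 1.27 (1.266). The fatty acid enzymes differed by 1.00 (1.002, Acaca), 1.10 (Fads1), 1.57 (Scd2), 1.81 (Elovl6), 2.69 (Scd1) and 4.48 (Fads2). Mylip differed by -0.93 (-0.925) and Abcg1 by -1.05 at 24 h. Most sterol enzymes fell in both genotypes at 4 h, whereas at 24 h they fell in WT and 0 were called in TGFBRII KO. The 4 h values of Abcg1 and Mylip were above 0 in WT and below 0 in TGFBRII KO.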

How the results depend on the processing

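No called value of a named gene changed direction under any alternative run in which the gene was tested. Values not called were not checked for direction. Of the 325 called values of named genes, 21 lost their call with the replicate block, 7 with RLE factors, 20 with library size alone, 28 without the low-count filter, 23 with depth as a covariate, 62 with DESeq2 and 44 with the libraries of a comparison fitted alone, where Lrp8, Tm7sf2 and Fads2 did not pass the filter in 1 or 2 comparisons. The replicate block moved no count of called genes by over 1.5 times (WT at 24 h had 29 of the 37 without it and 27 with it). It gave libraries of the same number a shared effect across all genotypes, so it does not test pairing within a genotype. Replicate numbers were not taken as pairs, since correlations between deviations of same-numbered libraries were not all over 0.1: they were -0.388 to 0.113 in WT, 0.015 to 0.198 in TGFBRII KO and -0.232 to 0.25 in CIS KO. In TGFBRII KO their median was 0.096, with 4 of 9 over 0.1, beside -0.054 and 0 of 18 for different numbers, and 7 of 9 libraries correlated best with their own number, where 0 of 10 did in WT and 5 of 12 in CIS KO. Y-linked RNA also followed the number in TGFBRII KO, at 376 to 451 CPM in replicate 2 and 187 to 248 CPM in the others. In WT it followed the number between the unstimulated and 24 h libraries, as given above. The 2 WT libraries at 4 h have opposite deviations by construction, so their correlations cannot decide pairing. These are hints from the data, not the design.

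Counts of the 37 genes called moved as follows. In WT at 4 h (18) DESeq2 gave 11, and the fit on its own libraries gave 7 sterol falls in place of 12. In TGFBRII KO at 24 h (0) no filter gave 2, depth 2 and its own libraries 8. The last of these fits called 73 genes higher and 133 lower over all genes. For 24 h against 4 h in WT (11) its own libraries gave 4. For unstimulated CIS KO against WT (4) depth gave 2, DESeq2 2 and own libraries 7. For these genotypes at 4 h (0) no filter gave 2 and depth 1, and at 24 h (1) library size alone gave 2, depth 5 and own libraries 0. The difference of their 24 h responses (0) gave 2 without the filter. With 1 mismatch allowed, the sterol regulatory element core was in 43.3% of the 30 genes in place of 3.33%, beside 26.7% of all genes. The causes were not tested.

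With each library left out in turn, counts ran from 9 to 17 for WT at 4 h (sterol falls 7 to 12), 0 to 1 for TGFBRII KO at 24 h, 3 to 12 for 24 h against 4 h in WT, 3 to 6 for TGFBRII KO against WT at 4 h and for the difference of their 4 h responses, 1 to 7 and 1 to 6 for CIS KO against WT unstimulated and at 24 h, and 0 to 2 for the response difference between CIS KO and WT at 24 h. The largest losses came without WT 4 h replicate 4, and WT at 4 h had 2 libraries, of which the other was the shallowest of all. Depth limits Fasn, Abca1, Idi1, Fads2 and Nr1h3 most. The genotypes' sex composition, with no control without TGFB1 known to match in time at 4 h or 24 h, limits what the comparisons show.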
